A study of Homo sapiens with 282 samples.

Results

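Doxorubicin hydrochloride and Aclacinomycin A are the anthracyclines in a panel of 14 compounds profiled on microarrays in OCI-Ly3, an established line grown from a human diffuse large B-cell lymphoma. Members were the arrays whose titles name either compound at 6 or 24 h, 24 of the 282 arrays of the series. Doxorubicin hydrochloride was given at 0.101 and 0.03 uM and Aclacinomycin A at 0.105 and 0.036 uM, with 3 arrays for each compound, concentration and time. The baseline was 1% DMSO, the vehicle, with 8 arrays at 6 h and 7 at 24 h. All groups used the same line, grown in IMDM with FCS and treated in 96-well plates, and RNA was taken well by well. The labels do not say that wells were separate cultures, so p-values measure the spread between these samples, which may be technical. Concentrations were matched by rank, 0.101 against 0.105 uM and 0.03 against 0.036 uM, so they differ slightly. How they were chosen, and whether they slow growth equally, is not given in the sources used here. The 12 h arrays were not analysed here.

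Anthracyclines are flat, ring-shaped molecules that slide between the base pairs of DNA and disturb topoisomerase II, the enzyme that cuts and rejoins both strands to untangle DNA. Doxorubicin carries a lone amino sugar, daunosamine, and is known to trap the enzyme on broken DNA. Aclacinomycin A, also called aclarubicin, carries a chain of several sugars and is known to block the enzyme before it cuts, so that it leaves fewer breaks. Both can evict histones from chromatin. DNA breaks activate the kinases ATM and ATR and, through them, the transcription factor p53, which switches on genes of arrest, repair and death. Through p21, the product of CDKN1A, p53 also lowers genes of replication and mitosis.

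The authors computed log2 intensities with RMA, so a difference of 1 is a 2-fold change in intensity. Arrays of both compounds and DMSO were alike in signal. The 75th percentile over all probe sets was 8.16 to 8.32 on the 20 arrays at 6 h and 8.17 to 8.27 on the 19 at 24 h. Some arrays stood apart in other ways. On Aclacinomycin A at 0.105 uM, 6 h, replicate 2, the spiked hybridisation control bioB read 10.18 against 7.66 to 8.40 on the other arrays of that time. DMSO replicate 2 at 6 h had a median of 5.59 over all probe sets, against 5.72 to 5.81 on the other DMSO arrays. At 24 h the ACTB 3′ minus 5′ difference, a sign of RNA quality, was over 0.5 on 4 arrays, which were DMSO replicates 5 and 6 and replicate 3 of each compound at the lower concentration, and bioB read 10.10 and 9.72 on those DMSO arrays. Levels of different probe sets depend on the probes, so the marker check that follows is rough and does not show which cells were present. In DMSO at 6 h, 7 of 14 measured B cell markers lay above the median gene level of 6.52, among them IRF4 at 13.16, CD74 at 13.1 and PRDM1 at 10.55, while MS4A1 (4.64), CD79A (5.02) and CD79B (4.94) lay below it. Of the markers of other cells, 1 of 10 of T and NK cells (CD4), 0 of 10 myeloid, 1 of 10 erythroid (TFRC) and 1 of 11 of fibroblasts and epithelia (COL3A1) lay above that level.

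The compounds were compared directly in 4 pairs, the higher and the lower concentration at 6 and 24 h, to ask whether these anthracyclines give the same response. Calls were made in limma where the adjusted p was under 0.05, with p-values adjusted over 18239 genes and over the 4 pairs. At 6 h and the higher concentration, 441 genes (2.42% of those tested) were higher under doxorubicin than under aclacinomycin A and 252 (1.38%) were lower. At the lower concentration of 6 h the counts were 33 (0.181%) and 6 (0.0329%). By 24 h they were 2255 (12.4%) higher and 2819 (15.5%) lower at the higher concentration, and 1356 (7.43%) and 1720 (9.43%) at the lower. Differences over 1 on the log2 scale were called for 35 genes at 6 h and 735 at 24 h at the higher concentration.

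Set beside the same DMSO arrays, the compounds gave unlike counts. Doxorubicin called 621 genes higher (3.40%) and 682 lower (3.74%) at 0.101 uM and 6 h, and 72 (0.395%) and 28 (0.154%) at 0.03 uM. At 24 h it called 2893 higher (15.9%) and 3621 lower (19.9%) at 0.101 uM, and 2081 (11.4%) and 2210 (12.1%) at 0.03 uM. Aclacinomycin A called 63 genes higher (0.345%) and 78 lower (0.428%) at 0.105 uM and 6 h. It called 0 genes (0%) in limma in the other 3 comparisons, with 843 genes at an unadjusted p under 0.05 at 0.036 uM and 6 h, 691 at 0.105 uM and 24 h, and 1813 at 0.036 uM and 24 h. These counts do not show that aclacinomycin A left the cells as they were, but the intervals bound its effect. The 95% interval of the difference from DMSO lay within -0.5 to 0.5 for 94.6% of genes at 0.105 uM and 6 h, and for 93.4% at 24 h. At 0.036 uM these shares were 98.6% and 91.1%. For doxorubicin they were 92.9% and 65.8% at 0.101 uM, and 96.6% and 76.1% at 0.03 uM. At 6 h the shares were thus alike for both compounds, and they do not show that either had little effect. Genes that read low count in them too. The plot of calls by comparison sets the counts side by side.

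**Figure D1:**
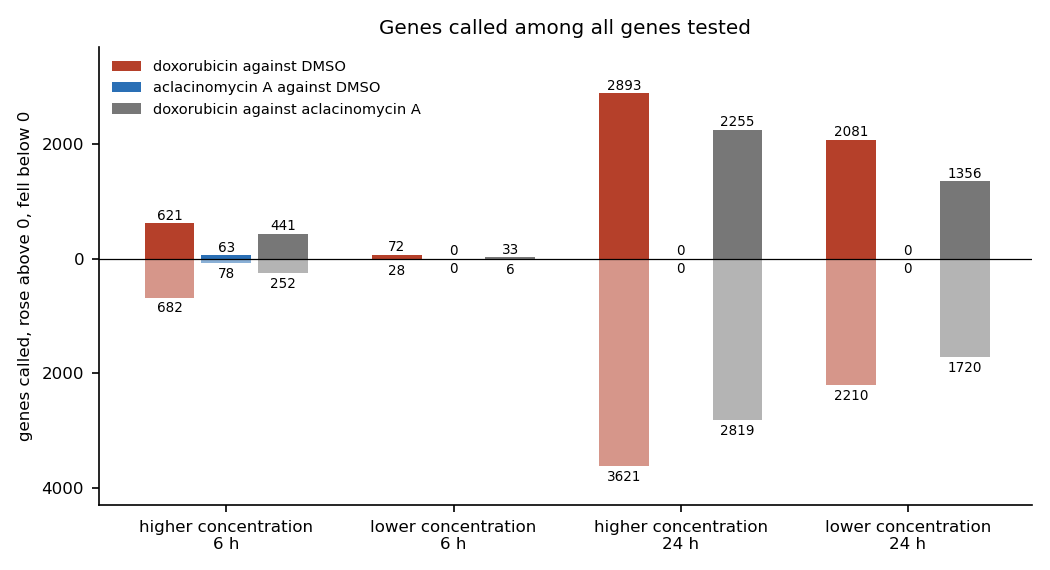
Number of genes called (adjusted p under 0.05 in limma) among 18239, rising above 0 and falling below it, for each compound against DMSO and for the compounds against each other. Doxorubicin reaches 2893 and 3621 genes at the higher concentration and 24 h, where aclacinomycin A has 0 in both directions.

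These counts have limits. With the 17 dim arrays of 24 h kept in the fit, which widens the shared spread but leaves the differences between the compounds as they are, the pair at 24 h called 485 genes at the higher concentration and 75 at the lower. Leaving out replicate 2 of each compound took the 6 h pair from 693 calls to 384, and the lower pair from 39 to 17. Leaving out DMSO replicate 2 took doxorubicin at 0.03 uM and 6 h from 100 calls to 231, aclacinomycin A at 0.105 uM and 6 h from 141 to 299, and aclacinomycin A at 0.036 uM and 24 h from 0 to 141. Without its own replicate 2, aclacinomycin A at 0.105 uM and 6 h went from 141 calls to 1. Among the genes named below, TOP2A, TDP1, ZNF451, DDB2, NQO1, FANCI, NBN, RRS1, ATF3, ICAM1, TNFAIP2, MAD1L1, HLA-DRA and TFRC lost the 24 h call at the higher concentration with all 24 h arrays. At 6 h the calls of ABCG2, CCNE2, RRM2, RRS1, TNFAIP2, TDP1, NKG7 and SMYD3 were lost when some replicate was left out.

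Of the 693 genes called at 6 h at the higher concentration, 584 were called in the same direction at 24 h, which is 84.3% of the 6 h list and 11.5% of the 24 h list. Only 2 were called in opposite directions. At the lower concentration 38 of 39 were called again in the same direction.

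Of the genes of topoisomerase II, the target of both drugs, TOP2A was called between the compounds and TOP2B was not. TOP2A, the form of topoisomerase II made in dividing cells, read 11.36, 11.26 and 11.28 under doxorubicin at 0.101 uM and 24 h. Under aclacinomycin A at 0.105 uM it read 11.88, 11.74 and 11.85, and in DMSO from 11.36 to 11.97 with a median of 11.83. All 3 doxorubicin arrays therefore lay below the aclacinomycin A arrays, with 2 of them below the DMSO range and 1 at its lower end, and the difference of -0.52 ± 0.13 (SE) was called (adjusted p = 0.00238). At 0.03 against 0.036 uM it was -0.82 ± 0.13. Neither TOP2A at 6 h nor TOP2B, the form kept in resting cells, was called at either time or concentration. The 95% interval for TOP2B at the higher concentration and 24 h was -0.26 to 0.05. TOP1, the enzyme that nicks a lone strand, differed by 0.17 at 24 h (adjusted p = 0.0775), with an interval of 0.04 to 0.29.

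TDP1 and ZNF451, which help clear topoisomerase from DNA, were called in opposite directions at 24 h. TDP1, which removes topoisomerase I peptides from DNA ends, read 8.31, 8.41 and 8.28 under doxorubicin and 9.70, 9.70 and 9.90 under aclacinomycin A, a fall of -1.43. ZNF451, a SUMO ligase that helps remove trapped topoisomerase II, was higher by 0.70. Over the list of 12 topoisomerases and removal enzymes, 3 were higher and 3 lower at 24 h, and 0 and 1 (TDP1, -0.31) at 6 h. Over all genes 12.4% were higher and 15.5% lower at 24 h, and counts this small do not set the list apart. With all 24 h arrays in the fit none of the 6 list members was called. The TDP1 call at 6 h was lost when any replicate was left out.

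Among genes of anthracycline transport and metabolism, AKR1C3, an aldo-keto reductase that reduces doxorubicin to its alcohol, read 8.72, 8.82 and 8.68 under doxorubicin at 24 h. It read 6.95, 6.81 and 6.85 under aclacinomycin A and 6.57 to 7.16 in DMSO, median 6.71. The doxorubicin arrays lay more than 1 above every aclacinomycin A and DMSO array of that time, and the difference was 1.87 at the higher and 1.58 at the lower concentration. CBR3, a carbonyl reductase, was higher by 0.39 at 6 h and 0.79 at 24 h, whereas CBR1, its better known relative, was not called (interval -0.44 to -0.03 at 24 h). ABCG2, an efflux pump, read 8.59, 8.56 and 8.42 under doxorubicin against 9.95, 9.95 and 10.04 under aclacinomycin A at 24 h, and fell by 1.46. ABCB1, the P-glycoprotein pump, was not called between the compounds (0.29 at 24 h, interval 0.05 to 0.53). Of 13 measured genes of this list, 2 were higher and 3 lower at 24 h at the higher concentration, near the shares over all genes (12.4% and 15.5%), or 1 and 1 with all 24 h arrays.

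p53 targets of arrest and feedback were higher under doxorubicin at every pair. Of 15 measured, 13 were called higher at 6 h at the higher concentration and 9 at the lower, and 14 at both concentrations at 24 h, with 0 lower in all 4 pairs. The list medians were 0.95 and 0.43 at 6 h and 1.63 and 1.11 at 24 h, beside medians over all genes of 0.01 and 0.00 at 6 h and 0.02 and 0.01 at 24 h. Keeping the dim arrays in the fit gave 10 calls at the higher concentration and 24 h. Set against DMSO, the list median was 0.01 for aclacinomycin A at 0.105 uM at both times, with 0 members called, and 0.96 and 1.58 for doxorubicin at 0.101 uM.

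CDKN1A, which encodes the cyclin-dependent kinase inhibitor p21, showed the pattern on single arrays. At 6 h it read 13.01, 12.97 and 13.04 under doxorubicin at 0.101 uM and 12.51, 12.56 and 12.47 at 0.03 uM. Aclacinomycin A arrays read 11.88, 11.82 and 11.76 at 0.105 uM and 11.83, 11.80 and 11.94 at 0.036 uM, and DMSO arrays 11.78 to 11.96, median 11.94. The doxorubicin arrays were thus apart from all others and ordered by concentration, while the aclacinomycin A arrays at 6 h lay within the DMSO range but for 1 just below it. The pair differences were 1.19 ± 0.05 (SE, adjusted p = 1.41e-36) and 0.66 ± 0.05. At 24 h they were 1.52 ± 0.06 and 1.20 ± 0.06, with doxorubicin at 13.41, 13.36 and 13.44 and aclacinomycin A at 11.84, 11.90 and 11.92 at the higher concentration. Aclacinomycin A differed from DMSO there by -0.01, with an interval of -0.11 to 0.08.

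MDM2, the ubiquitin ligase that degrades p53 and closes its feedback loop, followed the same order. Doxorubicin at 0.101 uM gave 9.48, 9.67 and 9.54 at 6 h and 10.56, 10.68 and 10.54 at 24 h. Aclacinomycin A at 0.105 uM gave 8.30, 8.18 and 8.45 and then 8.80, 8.66 and 8.61, inside the DMSO ranges of 7.95 to 8.43 at 6 h and 7.95 to 8.90 at 24 h except for 1 array at 6 h. The groups of the 2 compounds did not overlap at either time, and the differences were 1.25 ± 0.12 and 1.90 ± 0.16. SESN1, a sestrin that restrains growth signalling, was higher by 1.40 ± 0.07 at 6 h and 2.59 ± 0.11 at 24 h. GADD45A, a growth arrest gene, was higher by 0.50 and 1.90. PHLDA3, an inhibitor of AKT signalling, was higher by 1.48 ± 0.09 and 1.95 ± 0.08. The member not called at 24 h was CCND1, a cyclin, at 0.10 and 0.07.

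**Figure D2:**
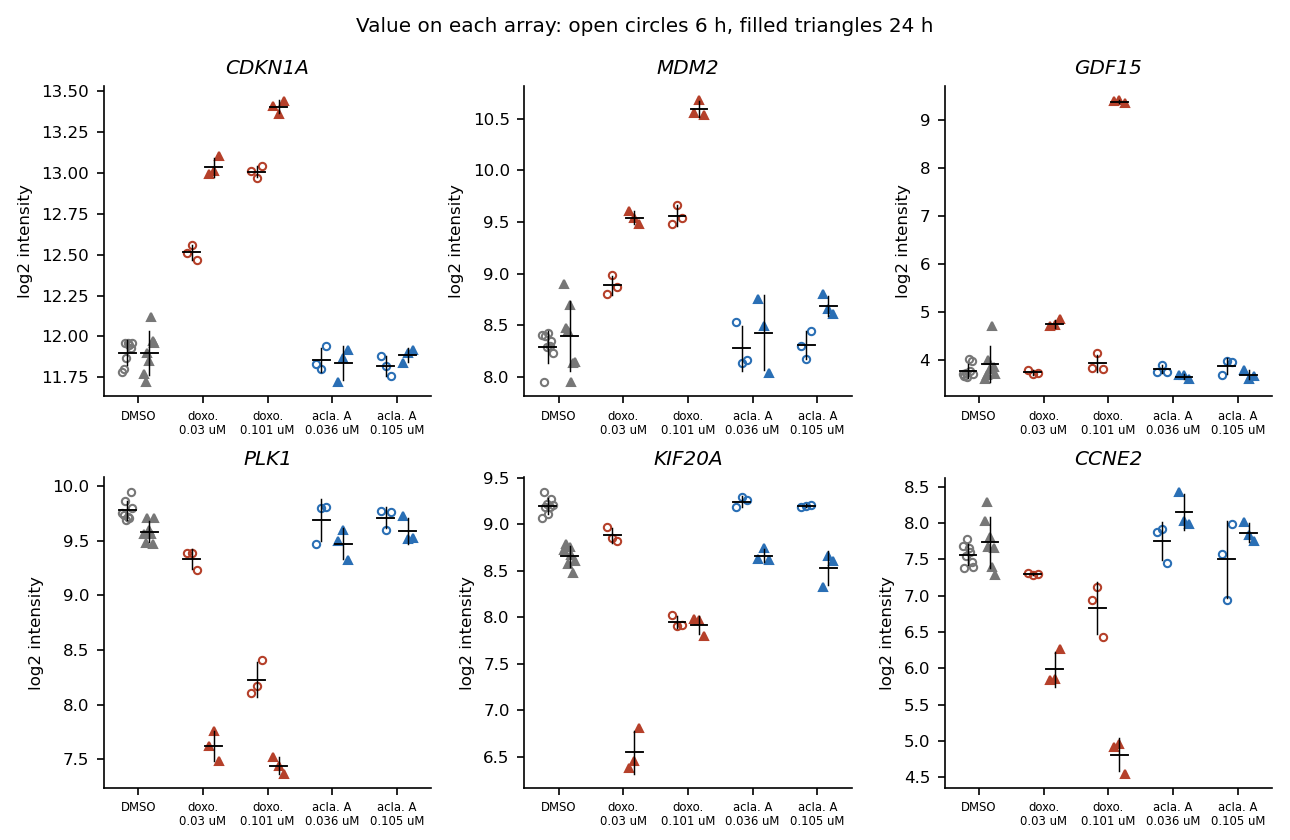
Log2 intensity of 6 genes on each array (open circles 6 h, filled triangles 24 h), with bars for the group mean and SD, in DMSO and in both concentrations of doxorubicin (doxo.) and aclacinomycin A (acla. A). For CDKN1A, MDM2 and GDF15 the doxorubicin arrays at 24 h lie above the aclacinomycin A arrays, and for PLK1, KIF20A and CCNE2 below them.

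p53 targets of cell death were also higher under doxorubicin, with smaller medians. Of 16 measured, 11 were called higher at 6 h at the higher concentration and 7 at the lower, and 12 and 10 at 24 h, with 0 lower. The medians were 0.65, 0.38, 0.93 and 0.56. TNFRSF10B, which encodes the death receptor DR5, read 11.29, 11.21 and 11.19 under doxorubicin at 6 h against 10.14, 9.98 and 10.23 under aclacinomycin A. Its difference was 1.11 at 6 h and 1.47 at 24 h. TP53I3, an oxidoreductase gene, was late and steep. It was higher by 1.07 at 6 h and by 3.33 at 24 h, where doxorubicin read 12.09, 12.18 and 12.00 and aclacinomycin A 8.69, 8.73 and 8.87, within the DMSO range of 8.57 to 8.92. BAX, which opens the mitochondrial membrane, was higher by 0.59 and 0.77, and BBC3, which encodes the BH3-only protein PUMA, by 0.59 and 1.48. BID, also a BH3-only gene, was not called (-0.02 and 0.02). The count of 12 became 7 with all 24 h arrays.

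In the list of p53 targets in repair, metabolism and secretion, 10 of 13 were called higher at 6 h at the higher concentration and 7 at the lower, and 11 and 10 at 24 h, with 0 lower and medians of 0.57, 0.34, 1.35 and 0.90. The count of 11 became 6 with all 24 h arrays. XPC, which finds DNA lesions for nucleotide excision repair, was higher by 1.04 at 6 h, and DDB2, its partner in that step, by 1.78 at 24 h. TIGAR, which turns glucose away from glycolysis, was higher by 1.00 and 1.76.

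GDF15, a secreted stress cytokine, separated the times. At 6 h it read 3.84, 4.15 and 3.83 under doxorubicin at 0.101 uM and 3.70, 3.98 and 3.97 under aclacinomycin A at 0.105 uM, and these overlapped (0.06, interval -0.16 to 0.27). At 24 h it read 9.40, 9.42 and 9.36 under doxorubicin against 3.81, 3.62 and 3.68 under aclacinomycin A. The lower concentration gave 4.71, 4.73 and 4.86 against 3.69, 3.69 and 3.61, while DMSO ran from 3.62 to 4.71 with a median of 3.82. The difference was 5.69 ± 0.18 at the higher concentration and 1.10 ± 0.18 at the lower, and doxorubicin at 0.101 uM exceeded doxorubicin at 0.03 uM by 4.63. GDF15 read low on the scale in aclacinomycin A and DMSO, near the myeloid markers (median 4.00 in DMSO at 6 h), where it may not be above background, so these sizes may understate the change.

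Among the largest differences, SULF2, an extracellular heparan sulfatase, read 7.94, 8.07 and 8.03 under doxorubicin at 6 h against 6.41, 6.27 and 6.54 under aclacinomycin A. At 24 h it read 10.80, 10.84 and 10.80 against 6.18, 6.42 and 6.34. Its difference was 1.61 ± 0.12 and then 4.50 ± 0.16, and 0.66 and 2.99 at the lower concentration. LCE1C and LCE1F, genes of the cornified envelope of skin, were higher by 5.34 and 4.50 at 24 h. At 6 h LCE1C was higher by 1.58 and LCE1F was not called. NECTIN4, an adhesion molecule of epithelia, was higher by 1.52 at 6 h and 3.70 at 24 h. SDC1, the syndecan that marks plasma cells, was higher by 1.47 and 2.74. BLNK, which links the B cell receptor to its downstream enzymes, read 7.60, 7.83 and 7.78 under doxorubicin at 24 h against 4.05, 4.44 and 4.37 under aclacinomycin A and 3.88 to 4.49 in DMSO. The doxorubicin arrays lay clear of both other groups, and at 6 h its difference was 0.11 and not called. TRIM67, a gene of the TRIM family, was higher by 0.76 and 3.76.

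Genes of mitosis fell. Of 34 measured, 30 were called lower under doxorubicin than under aclacinomycin A at 6 h at the higher concentration and 0 higher, with a median of -0.66. At the lower concentration 4 were lower (median -0.21). By 24 h, 31 were lower at the higher concentration and 33 at the lower, with medians of -0.93 and -1.34. Leaving out 1 replicate left 29 to 30 of the calls at 6 h, and with all 24 h arrays the 31 became 11. Against DMSO, the list median was -0.67 and -0.94 for doxorubicin at 0.101 uM and 0.00 and -0.05 for aclacinomycin A at 0.105 uM, with 0 members called for the latter.

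Many mitotic genes carry a pair of promoter elements, the cell cycle homology region (CHR) and CCAAT boxes, through which the DREAM complex and the factor NF-Y act, while replication genes often carry E2F sites. In RefSeq windows of 300 bases, from 250 before to 50 after the start (GRCh38.p14), TTTGAA or TTCGAA was found on either strand in 20 of 29 mitosis promoters (69%), against 13.9% of 14492 promoters of array genes. CCAAT on either strand was found in 24 of 29 (82.8%) against 36.1%, and both together in 19 of 29 (65.5%) against 5.73%. In the replication list, 2 of 32 (6.25%) held both. The E2F letters TTTGGCGC, TTTCGCGC, TTTCCCGC or TTTGCCGC, on either strand, were in 17 of 32 replication promoters (53.1%), 3 of 29 mitosis promoters (10.3%) and 4.37% of all. The p53 half-site was found in 4 of 31 windows of p53 targets (12.9%) against 6.05%. Sites outside the 300 bases were not searched, so this count does not show how many of these targets carry a site. A match is a description of letters, not of binding. The CHR and CCAAT letters do not overlap. Below are the 150 bases before the start of the 3 mitosis genes with the largest falls at 6 h and of 3 members of the replication list with large falls at 24 h. These are CCNE1, a cyclin E, GINS2, a subunit of the replication helicase, and RRM2, of ribonucleotide reductase. Matches are in capitals.
PLK1 (chr16:23678739-23678888, plus strand): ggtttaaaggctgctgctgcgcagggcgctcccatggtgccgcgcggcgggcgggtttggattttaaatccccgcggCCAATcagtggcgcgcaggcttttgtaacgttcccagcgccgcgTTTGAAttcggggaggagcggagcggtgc
KIF20A (chr5:138178962-138179111, plus strand): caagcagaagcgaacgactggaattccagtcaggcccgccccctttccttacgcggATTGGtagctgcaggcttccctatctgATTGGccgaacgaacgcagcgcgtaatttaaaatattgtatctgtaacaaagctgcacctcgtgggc
CENPE (chr4:103198344-103198493, minus strand): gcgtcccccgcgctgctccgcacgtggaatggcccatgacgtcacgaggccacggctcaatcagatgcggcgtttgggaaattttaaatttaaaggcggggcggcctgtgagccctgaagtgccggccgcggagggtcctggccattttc
CCNE1 (chr19:29811841-29811990, plus strand): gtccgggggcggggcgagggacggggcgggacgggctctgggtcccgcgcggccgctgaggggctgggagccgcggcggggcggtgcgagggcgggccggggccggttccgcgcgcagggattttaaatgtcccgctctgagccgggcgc
GINS2 (chr16:85688955-85689104, minus strand): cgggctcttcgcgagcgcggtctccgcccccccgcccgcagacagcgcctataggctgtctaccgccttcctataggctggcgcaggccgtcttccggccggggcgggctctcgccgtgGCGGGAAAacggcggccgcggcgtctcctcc
RRM2 (chr2:10122418-10122567, plus strand): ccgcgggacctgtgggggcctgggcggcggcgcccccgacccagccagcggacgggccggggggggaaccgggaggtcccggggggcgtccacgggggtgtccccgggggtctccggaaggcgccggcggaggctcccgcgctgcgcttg

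PLK1 thus has a CCAAT box that begins 73 bases and a CHR that begins 29 bases before the start. KIF20A has 2 CCAAT boxes on the opposite strand, 94 and 67 bases before it, and no CHR in the window. CENPE has none of the searched letters, and CCNE1 has no match either. GINS2 has an E2F match on the opposite strand 31 bases before its start and a CCAAT box 158 bases before it. RRM2 has a CCAAT box near the far end of the window and no E2F match. Both of these boxes lie upstream of the stretch shown.

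PLK1, the kinase that drives entry into and progress through mitosis, read 8.11, 8.17 and 8.41 under doxorubicin at 0.101 uM and 6 h. It read 9.77, 9.60 and 9.76 under aclacinomycin A and 9.69 to 9.95 in DMSO, median 9.75. Every doxorubicin array lay more than 1 below every aclacinomycin A and DMSO array, and the difference was -1.48 ± 0.08 at 6 h and -2.15 ± 0.10 at 24 h. At 24 h the lower concentration gave 7.62, 7.76 and 7.49 under doxorubicin against 9.50, 9.60 and 9.32 under aclacinomycin A, nearly the same fall (-1.85 ± 0.10). CENPE, a kinesin that ties chromosomes to spindle microtubules, fell by 1.21 at 6 h. CENPA, the histone H3 variant of centromeres, fell by 1.03 and KIF14, a kinesin of cell division, by 1.11. By 24 h KIF14 fell by 2.51, CCNA2, cyclin A, by 2.18 and CCNB1, cyclin B, by 1.62. HJURP, the chaperone that loads CENPA, fell by 0.84 and 1.28.

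The depth of the mitotic fall at 24 h was not ordered by concentration. In doxorubicin at 0.101 against 0.03 uM, 1173 genes were called higher at 24 h (6.43%) and 1787 lower (9.80%), or 139 (0.762%) and 135 (0.740%) at 6 h. Of the 34 mitosis genes, 19 were called higher at 0.101 than at 0.03 uM at 24 h and 4 lower. KIF20A, a kinesin of the cleavage furrow, showed it most clearly. At 24 h it read 7.98, 7.97 and 7.80 at 0.101 uM and 6.38, 6.45 and 6.81 at 0.03 uM, against 8.48 to 8.79 in DMSO. The lower concentration gave the lower arrays, without overlap, by 1.37 ± 0.11. At 6 h the order was the reverse, with 8.02, 7.90 and 7.92 at 0.101 uM and 8.97, 8.85 and 8.82 at 0.03 uM. CENPE at 24 h read 8.65, 8.56 and 8.68 against 7.65, 7.71 and 7.86, a step of 0.89 ± 0.09. KIF18A and KIF2C, kinesins that shorten microtubules, gave steps of 1.12 and 1.17, and neither was called between the compounds at the higher concentration and 24 h (-0.19, interval -0.49 to 0.10, and 0.02, interval -0.12 to 0.16). PLK1 (-0.18) was not called in the step, and KIF14 went the other way (-0.74).

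In the p53 lists the order at 24 h did follow concentration. In each of the 3 lists 10 members were called higher at 0.101 than at 0.03 uM and 0 lower. Counts of the doxorubicin step at 24 h fell from 2960 to 51 with all 24 h arrays. The aclacinomycin A step called 2 genes at 6 h (0.0110%), both lower at the higher concentration, and 0 at 24 h (0%, with 899 at an unadjusted p under 0.05).

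**Figure D3:**
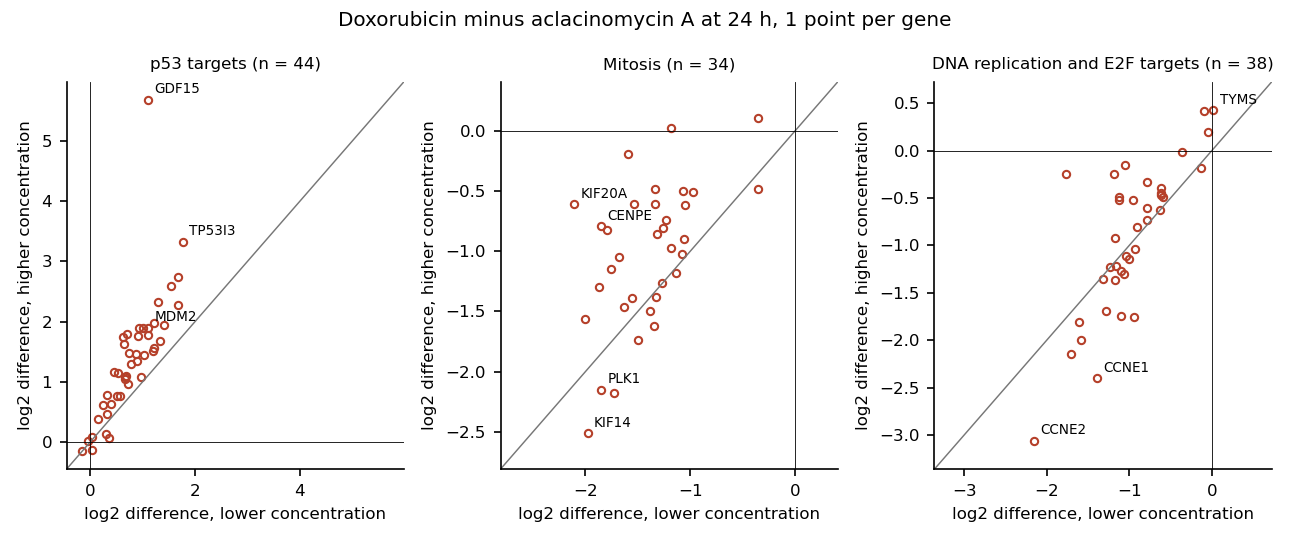
Doxorubicin minus aclacinomycin A at 24 h for each gene of the p53, mitosis and replication lists, with the lower concentration on the x axis and the higher on the y axis (log2), and a line of equal values. Most p53 targets lie above the line and 25 of 34 mitosis genes also lie above it, that is, less negative at the higher concentration.

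Replication genes changed later than mitotic genes. Of 38 measured, 1 was higher and 4 lower at 6 h at the higher concentration, and 3 higher and 30 lower at 24 h, with a median of -0.77. Among all genes 2.42% were higher and 1.38% lower at 6 h, and 12.4% and 15.5% at 24 h. At the lower concentration 0 were called at 6 h and 34 were lower at 24 h (median -1.04). The 30 falls became 9 with all 24 h arrays. CCNE2, a cyclin E that opens S phase, read 4.92, 4.96 and 4.55 under doxorubicin at 0.101 uM and 24 h. It read 8.01, 7.84 and 7.75 under aclacinomycin A and 7.29 to 8.29 in DMSO, median 7.67. The gap of -3.06 ± 0.21 was the largest fall among genes called with arrays apart. At 6 h it was -0.67 ± 0.17, and that call was lost without replicate 1 or replicate 3. CCNE1, the other cyclin E, fell by 2.40 at 24 h and was not called at 6 h (-0.18). RRM2, a subunit of the ribonucleotide reductase that makes the building blocks of DNA, read 9.35, 9.40 and 9.28 against 11.34, 11.35 and 11.34 at 24 h, a fall of 2.00, and fell by 0.25 at 6 h. UNG, which removes uracil from DNA and is not in the list, fell by 2.39. Against this direction, GINS4, PCNA and TYMS were higher at 24 h by 0.42, 0.20 and 0.43, and none of the 3 was called with all 24 h arrays.

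The lists of replication-dependent histones and of histone variants with chaperones were called in different directions at 24 h at the higher concentration. Replication-dependent histones, whose transcripts normally end without a poly(A) tail and which oligo(dT) priming reads poorly, included 14 higher of 38 at 24 h at the higher concentration and 0 lower (median 0.27). At the lower concentration 5 were higher and 3 lower (median 0.01), and 13 were called higher at 0.101 than at 0.03 uM of doxorubicin with 0 lower. Shares over all genes were 12.4% higher and 15.5% lower at the higher concentration, and 7.43% and 9.43% at the lower. For the doxorubicin step they were 6.43% and 9.80%. The counts at the lower concentration do not set this list apart. H2BC5 read 10.11, 10.06 and 10.06 under doxorubicin at 0.101 uM, 9.25, 9.20 and 9.12 at 0.03 uM and 8.82, 8.71 and 8.78 under aclacinomycin A at 0.105 uM. DMSO ran from 8.72 to 9.11, so the arrays at 0.101 uM stood clear of it, and the difference was 1.31. Histone genes are near-identical copies, and the probes may read more than 1. The list of histone variants and histone chaperones, not split here, went the other way, with 18 of 25 lower at 24 h (median -0.50) and 2 higher. With all 24 h arrays the 14 rises became 4 and these 18 falls became 1.

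Genes of the DNA damage checkpoint and of double strand break repair were called lower where they were called. At 6 h 1 of 26 was called at the higher concentration, WEE1, the kinase that holds back mitosis, which fell by 0.57. So small a count does not set the list apart from all genes, of which 1.38% were lower. At 24 h 15 were lower and 0 higher (median -0.55), and 17 lower at the lower concentration. The shares lower over all genes were 15.5% and 9.43%. FANCI, of the Fanconi pathway, fell by 1.14 and NBN, of the complex that senses breaks, by 0.83. None of these was called by limma when the dim arrays were kept.

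Ribosome biogenesis genes, which build ribosomes in the nucleolus, fell late. At 6 h 4 of 37 were lower and at 24 h 27 were lower and 2 higher (median -0.52), with 26 lower at the lower concentration. The shares lower over all genes were 1.38%, 15.5% and 9.43%. DKC1, which modifies ribosomal RNA, fell by 1.27 and RRS1, an assembly factor, by 0.96. POLR1A, the largest subunit of RNA polymerase I, was not called at either time (interval -0.33 to 0.05 at 24 h). The 27 falls became 2 with all 24 h arrays. MYC, which drives ribosome production, fell by 0.52 at 6 h and 1.58 at 24 h.

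**Figure D4:**
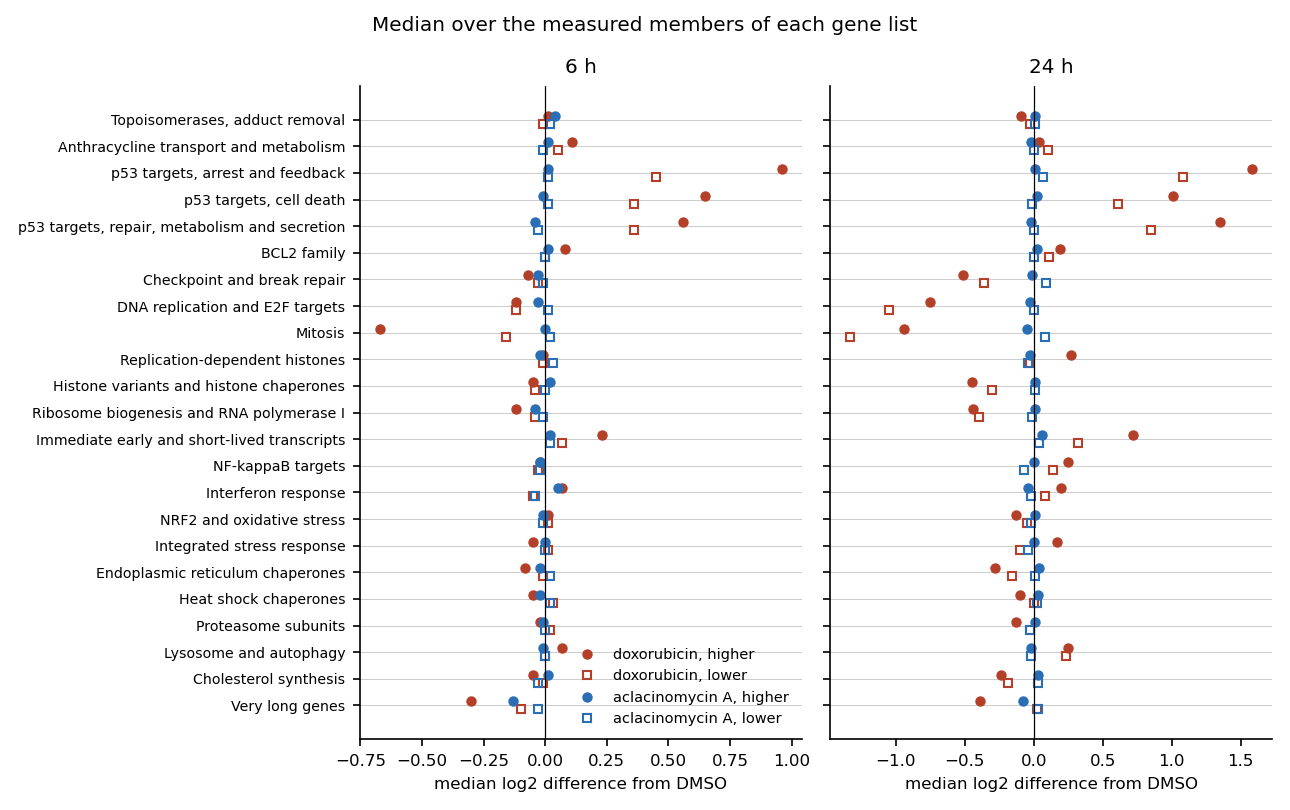
Median log2 difference from DMSO over the measured members of 23 gene lists at 6 h (left) and 24 h (right), with different x scales, for doxorubicin in red and aclacinomycin A in blue (filled circles the higher, open squares the lower concentration). Aclacinomycin A medians stay between -0.13 and 0.09, and doxorubicin medians run to 1.58 for p53 targets of arrest and to -1.33 for mitosis.

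Immediate early genes, which respond to signals within minutes and make short-lived transcripts, were called higher more often than lower. At the higher concentration 10 of 34 were higher and 1 lower at 6 h (median 0.14), and 25 higher and 1 lower at 24 h (median 0.72). At the lower concentration the counts were 1 and 0, and then 19 and 2. Shares over all genes at the higher concentration were 2.42% and 1.38% at 6 h, and 12.4% and 15.5% at 24 h. IER3, a stress and survival gene, was higher by 0.91 at 6 h, and IER5 by 0.74. ATF3, a stress transcription factor, read 10.74, 10.71 and 10.70 under doxorubicin at 24 h against 8.86, 8.80 and 9.08 under aclacinomycin A and 8.76 to 9.03 in DMSO. It was higher by 1.80, and DUSP5, a phosphatase of ERK, by 1.93. The gene that fell at both times was MYC. The 25 rises became 7 with all 24 h arrays, and ATF3 was not among them.

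Some NF-kappaB targets and interferon-stimulated genes were called higher at 24 h. OCI-Ly3 is known for constant NF-kappaB activity. Of 23 NF-kappaB targets, 3 were higher at 6 h, and 13 higher and 3 lower at 24 h (median 0.35). Over all genes 2.42% were higher at 6 h, and 12.4% higher and 15.5% lower at 24 h, so the 3 falls do not stand out. ICAM1, an adhesion receptor, was higher by 0.43 and 0.83, and TNFAIP2 by 0.32 and 1.12. None of the 13 was called by limma when the dim arrays were kept. Of 31 interferon genes, 1 was higher at 6 h and 13 at 24 h (median 0.32), against 5 at the lower concentration. The 1 rise at 6 h is near the share over all genes, which at the lower concentration and 24 h was 7.43%. ISG20, an exonuclease, was higher by 1.95 and ISG15, a ubiquitin-like modifier, by 1.36. The 13 rises became 6 with all 24 h arrays, ISG20 and ISG15 among them.

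The difference between the compounds changed with time for 3699 genes in a fit of both times, 1541 upward (8.45%) and 2158 downward (11.8%). The changes included 13 of 15 p53 targets of arrest upward and 30 of 38 replication genes downward. Mitosis genes changed in both directions, 5 upward and 17 downward. DHRS2, a short-chain dehydrogenase gene, lost its call. At 6 h it read 6.29, 5.76 and 5.51 under doxorubicin at 0.101 uM and 7.25, 7.43 and 7.14 under aclacinomycin A (-1.42 ± 0.14). At 24 h it read 6.15, 6.30 and 6.23 against 6.51, 6.45 and 6.44, a difference of -0.24 (adjusted p = 0.605). The change from 6 to 24 h was 1.18, and at the lower concentration and 24 h the gene was still lower by 0.88. The number of changes was 227 with all 24 h arrays.

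Aclacinomycin A gave few calls against DMSO, and its calls at 6 h rested almost wholly on 1 array. Of the 141 genes called at 0.105 uM and 6 h, 1 was called when replicate 2, the array with the high bioB reading, was left out. Without replicate 3 the count was 663, and without replicate 1 it was 301. Of the 63 genes called higher, 52 lay below the median gene level, with a median level of 4.07. DSG1, a desmosome cadherin, read 4.31, 5.35 and 4.41 against 3.89 to 4.19 in DMSO, and replicate 2 was the highest. TXN, thioredoxin, was the member of the oxidative stress list called higher (0.31). At 24 h 0 of these genes were called at the same concentration.

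Genes called lower under aclacinomycin A at 6 h had a longer median length than all genes. The 78 had a median length of 68.8 kb from RefSeq gene models, against 25.7 kb over all genes. They were not matched for level, with a median level in DMSO of 7.85 against 6.52 over all genes. Without replicate 2 of aclacinomycin A, 1 gene in all was called, so this list rested on that array. WWOX, a gene at a fragile site, read 8.30, 7.84 and 8.19 under aclacinomycin A and 7.87, 7.97 and 8.02 under doxorubicin at 6 h. DMSO ran from 8.39 to 8.70 with a median of 8.54, so all 6 arrays lay below it. The differences from DMSO were -0.40 ± 0.08 and -0.56 ± 0.08, and the compounds were not called apart (-0.16, interval -0.34 to 0.02). At 24 h doxorubicin gave 6.44, 6.16 and 6.54 and aclacinomycin A 8.11, 8.34 and 8.37, below the DMSO range of 8.47 to 9.08, and the compounds differed by -1.89 ± 0.12. Aclacinomycin A differed from DMSO there by -0.42 ± 0.10 (adjusted p = 0.458). SLC9A9, a sodium and proton exchanger gene, read 8.07, 7.83 and 8.47 under aclacinomycin A and 8.00, 7.89 and 8.22 under doxorubicin at 6 h, against 8.54 to 9.01 in DMSO. Its call under aclacinomycin A was lost without replicate 2.

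Gene length was then set against the difference from DMSO over the 9114 genes with a length above the median level. This level filter was chosen after seeing the data. Under doxorubicin at 0.101 uM and 6 h the median difference was -0.02 for genes of 10 to 50 kb (n = 4155), -0.11 for 200 to 400 kb (n = 405) and -0.23 over 400 kb (n = 148), where 70 genes were called lower and 2 higher. Under aclacinomycin A at 0.105 uM the medians were -0.03, -0.06 and -0.12, with 15 called lower and 0 higher in the longest class. Without replicate 2 the longest class had a median of -0.10 and 0 calls, so the shift stayed and the calls did not. The compounds differed in that class by a median of -0.09, with 10 genes called lower under doxorubicin and 1 higher. At the lower concentrations and 6 h the medians were -0.07 for doxorubicin and -0.02 for aclacinomycin A. At 24 h doxorubicin at 0.101 uM gave -0.26 and at 0.03 uM 0.07, and aclacinomycin A -0.05 and 0.04. Genes of 1 library share its errors, so no test was made across genes. Over all 461 genes longer than 400 kb, low ones included, both medians at 6 h were -0.03, with 86 called lower under doxorubicin and 18 under aclacinomycin A. The medians of -0.23 and -0.12 were therefore seen only with the level filter. Over genes of any length, 3.74% and 0.428% were called lower.

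**Figure D5:**
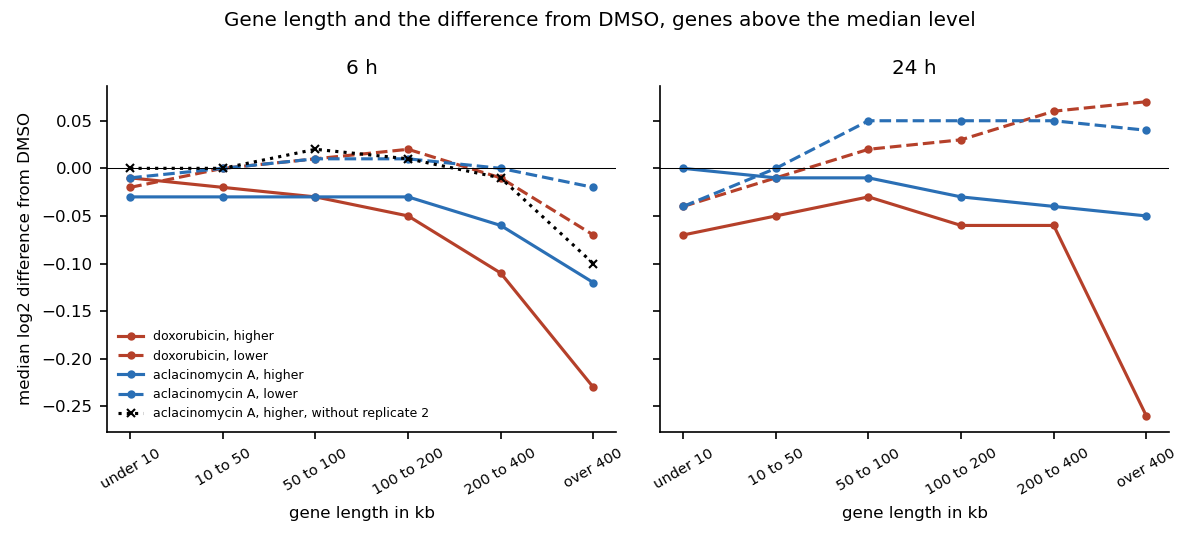
Median log2 difference from DMSO by gene length (kb) over genes above the median level, at 6 h (left) and 24 h (right), for each compound and concentration, with a dotted line for aclacinomycin A at the higher concentration without replicate 2. At 6 h the higher concentrations reach -0.23 for doxorubicin and -0.12 for aclacinomycin A in genes over 400 kb.

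In the list of 29 very long genes, 15 were called lower than DMSO under doxorubicin at 0.101 uM and 6 h and 4 under aclacinomycin A at 0.105 uM, with medians of -0.30 and -0.13 and 0 higher. Between the compounds 4 were lower at 6 h, 1 of them SMYD3, a methyltransferase gene (-0.36), whose sign turned (0.01) when all its probe sets were averaged. MAD1L1, a spindle checkpoint gene in this list, was lower than DMSO under doxorubicin at 6 h by 0.48. At 24 h it read 9.32, 9.21 and 9.11 under doxorubicin at 0.101 uM against 7.69, 7.59 and 7.66 under aclacinomycin A and 7.55 to 7.97 in DMSO, higher by 1.57. It was 1 of 2 members called higher between the compounds at 24 h, against 14 lower (median -0.27), or 0 and 1 with all 24 h arrays. Against DMSO 2 were higher and 19 lower under doxorubicin at 0.101 uM and 24 h (median -0.39).

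Few markers of other cells were called. Between the compounds at the higher concentration, 1 of 10 T and NK cell markers was higher at 6 h (NKG7, 0.49), and at 24 h 1 of 10 myeloid markers was higher (ITGAM, 0.86) and 1 of 10 erythroid markers lower (TFRC, -0.25). Over all genes 2.42% were called higher at 6 h, and 12.4% higher and 15.5% lower at 24 h. Against those shares such small counts do not set these markers apart. Most of them read below the median gene level, where a change may be hard to see. The mean level of the T and NK list was 5.44 to 5.54 on the doxorubicin arrays at 6 h and 5.27 to 5.39 on the aclacinomycin A arrays. The myeloid list at 24 h ran from 4.27 to 4.35 and from 4.26 to 4.30. The part of other cells in the results was not tested. Of 14 B cell markers, 3 were higher and 1 lower at 24 h, few genes to set beside those shares. POU2AF1, a coactivator of B cell transcription, read 5.58, 5.21 and 5.39 under doxorubicin against 3.71, 3.83 and 3.90 under aclacinomycin A. The list mean was 7.51 to 7.56 on the doxorubicin arrays, 7.33 to 7.40 on the aclacinomycin A arrays and 7.30 to 7.42 on the DMSO arrays. CD40, a receptor for T cell help, was higher by 1.07, and HLA-DRA, which presents antigen, was lower by 0.43. In such bulk samples, fewer cells that express a gene and less RNA per cell cannot be told apart.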

How the data were processed

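Probe intensities on Affymetrix HT HG-U219 arrays were summarised to log2 values with RMA by the authors, per the submitters' processing notes, and deposited as a value table of 49386 probe sets. The RMA version is not given in the sources used here. Of these, 45259 probe sets had 1 gene symbol in GEO's platform annotation, and the probe set with the highest mean stood for each of 18239 genes. At 24 h, 17 of 94 arrays with a 75th percentile under 8 were left out, which can change the spread shared between groups. DMSO replicate 7 was among them. The limma package (3.58.1, R 4.3.3) fitted 6 h and 24 h separately, except for the change with time, with 1 mean per group over all groups and a trend in the variance, and was tested on simulated data. A gene was called at a Benjamini-Hochberg adjusted p under 0.05 over all genes. For the compound pairs this was the larger of the adjustment within the pair and over the 4 pairs. Intervals are at 95%.

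The compounds and the 28 gene lists were chosen with earlier results of these data known. Genes were named by rule. For the compound pairs these were the 8 largest rises and 8 largest falls at the higher concentration, and 4 and 4 at the lower, among called genes whose arrays do not overlap. For each compound against DMSO they were 4 and 4, and for each list the 2 members with the smallest adjusted p at 6 and at 24 h at the higher concentration. TOP1, TOP2A, TOP2B, CDKN1A, MDM2, GDF15, ABCB1, CBR1, POLR1A and NQO1 were always included. CCND1, BID, MYC, KIF18A, KIF2C, GINS2, GINS4, PCNA, TYMS and the markers IRF4, CD74, PRDM1, MS4A1, CD79A, CD79B and COL3A1 fall outside the rule and were chosen after their values were seen. Gene lengths and promoter sequences are those of RefSeq on GRCh38.p14, with a length for 99.7% of the genes.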

Additional observations from a re-analysis of the deposited data

Results flagged for a closer look

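In 9 of 74 groups of DMSO arrays, taken over 37 genes and both times, the highest or lowest array stood far from the others. Chance flags about 1 in 20 such groups. At 6 h 6 of the 9 were DMSO replicate 2, which read lowest for MDM2 (7.95), NECTIN4 (5.37), SULF2 (6.03), POLR1A (8.78), CBR1 (10.43) and TOP1 (11.46). Its median over all probe sets was 5.59, against 5.72 to 5.81 on the other DMSO arrays of that time. At 24 h DMSO replicate 2 read 5.75 for DHRS2, replicate 5 read 4.71 for GDF15 and replicate 8 read 6.36 for TRIM67.

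The difference between doxorubicin and aclacinomycin A at the higher concentration changed from 6 to 24 h for 28 of these genes, by the limma test of the change itself. Most of the 37 genes were picked for a large difference at 6 or 24 h, so a high count is partly built into the choice. Over all genes 8.45% changed upward and 11.8% downward. The gap grew upward for GDF15 by 5.63, LCE1F by 4.30, LCE1C by 3.76, BLNK by 3.34, TRIM67 by 2.99, SULF2 by 2.89, TP53I3 by 2.26 and NECTIN4 by 2.19. Smaller upward changes were those of SDC1 (1.27), TP53INP1 (1.25), SESN1 (1.19), MDM2 (0.65), PHLDA3 (0.47) and CDKN1A (0.33). The negative gap shrank for DHRS2 (1.18), KIF20A (0.64) and CENPE (0.43). It grew downward for CCNE2 (-2.39), PIMREG (-2.35), CCNE1 (-2.22), TRIP13 (-2.12), UNG (-2.01), SPC25 (-2.00), FAM111B (-1.75), KIF14 (-1.40) and PLK1 (-0.67). NQO1 (-0.50) and CBR1 (-0.43) turned from above 0 to below it.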

How the results depend on the processing

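Of 222 counts of calls under another setting, over 17 comparisons, 184 were within 1.5 times the value reported and 38 were not. With all 24 h arrays the counts were 485 and 75 for the compound pairs at the higher and lower concentration, 1107 and 203 for doxorubicin against DMSO, 51 for its concentration step and 227 for the change with time. That setting adds 17 dim arrays to the shared spread. DMSO replicate 7 is among them, so the differences from DMSO change as well. Aclacinomycin A against DMSO at 0.105 uM and 6 h gave 80 calls after quantile normalization, 88 without the 40% of genes with the lowest mean, 25 with only DMSO and both compounds, and 1 without its replicate 2 alone, a setting chosen after seeing the data, as were the level filter for gene length and leaving out the 4 arrays of 24 h with an ACTB difference over 0.5. The latter gave 5250 and 2640 calls for the pairs at 24 h and changed no call of a named gene. Its concentration step at 6 h gave 0 calls with the mean of all probe sets and 0 with only DMSO and both compounds. The cause was not tested. A limit of 2 on the ACTB 3′ to 5′ difference left out 0 further arrays, so it gave no values.

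Leaving out 1 replicate at a time gave 384 to 547 calls for the pair at the higher concentration and 6 h, 17 to 27 at the lower, 4040 to 4064 and 2159 to 2386 at 24 h. For doxorubicin against DMSO it gave 842 to 1401 and 48 to 231 at 6 h and 5741 to 6596 and 3506 to 4570 at 24 h, the highest at 6 h without DMSO replicate 2. For aclacinomycin A it gave 1 to 663 at 0.105 uM and 6 h, 0 to 1 at 24 h and 0 to 141 at 0.036 uM and 24 h, where 141 came without DMSO replicate 2. The steps gave 110 to 145 (doxorubicin, 6 h), 0 to 8 (aclacinomycin A, 6 h) and 1866 to 2141 (doxorubicin, 24 h), and the change with time 2631 to 3295. Of 2439 values of named genes, 2296 kept their direction and side of the threshold, and 1 reversed, SMYD3 in the pair at 6 h with the mean of all probe sets (0.01).

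Replicate numbers did not meet the bar for pairing, a correlation over 0.1 in every pair. Deviations of same-numbered arrays of the compounds correlated between -0.083 and 0.348, highest in the lower pair at 24 h (0.161, 0.0907 and 0.348), and own number was best in 4 of 12 cases. With a replicate block the doxorubicin counts at 6 h were 814 and 47, the aclacinomycin A count at 0.105 uM and 6 h was 4 and its 6 h step 1. The pairs gave 690, 40, 5244 and 3223. Precision is limited by 3 arrays a group, with a median SE of 0.119 at 6 h and 0.142 at 24 h for the pairs.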

Other observations

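Lists of cell maintenance also differed between the compounds at 24 h, with values for the higher concentration, where 12.4% of all genes were called higher and 15.5% lower. Of 26 lysosome and autophagy genes, 11 were higher under doxorubicin and 1 lower (median 0.23). SQSTM1, an autophagy receptor, was higher by 0.78 and NEU1, a lysosomal sialidase, by 0.75. Of 18 chaperones of the endoplasmic reticulum, 12 were lower and 2 higher (median -0.36), with SDF2L1 at -1.19 and MANF, a secreted stress protein, at -1.01. Of 30 proteasome subunits, 14 were lower and 1 higher (median -0.15), for example PSMB2 at -0.34 and PSMA7 at -0.32. With all 24 h arrays, 1 of the 11 lysosome rises, 0 of the 12 chaperone falls and 0 of the 14 proteasome falls were called by limma.

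Cholesterol synthesis genes split. Of 19 measured, 13 were lower and 4 higher, with DHCR7, its last step, at -1.49 and LSS, which closes the sterol rings, at 1.10. In the oxidative stress list, 10 of 22 were lower and 3 higher, with TALDO1, of the pentose phosphate pathway, at -0.70 and GPX1, a glutathione peroxidase, at 0.72. Of 18 heat shock chaperones, 9 were lower and 3 higher, with the mitochondrial HSPD1 at -0.63 and HSPA1B at 0.58. Of 21 genes of the integrated stress response, 7 were higher and 6 lower. SESN2, a sestrin that p53 also induces, was higher by 1.97 and PHGDH, of serine synthesis, lower by 1.43. In the BCL2 family 7 of 16 were higher and 2 lower, among them BCL2L11, a BH3-only gene, at 0.87. With all 24 h arrays the cholesterol, oxidative stress and heat shock falls called were 0, and 1 of the 7 BCL2 family rises was called.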
